A study of Mus musculus with 2 samples.

Results

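Transcription factor genes of the neural crest and pharyngeal arches were followed through single nuclei of mouse aorta, from its ascending stretch and its arch. The members were chosen by symbol: Dlx5, Dlx6, Dlx6os1, Msx1, Msx2, Hand2, Tfap2b, Twist1, Foxc1 and Foxc2, 10 symbols that matched 11 of the 54754 rows of the feature list, since Dlx6os1 is listed under 2 identifiers. The nuclei came from mice carrying Wnt1-Cre and the Rosa26-mTmG reporter, an allele that gives tdTomato until Cre acts and GFP in the recombined cell and its descendants. Wnt1-Cre is active in the embryonic neural crest, so GFP marks cells that had Cre or descend from such cells, and both alleles were shared by every animal. The tissue of each sex was pooled and gave 1 library, Female or Male. The labels name 6 mice without saying whether per pool or in all, and each pool was split into 2 technical replicates that the barcodes do not tell apart. The labels state no age. The 2 libraries are the replicates of every comparison between nucleus groups, they differ in sex, and p-values measure only the spread between them.

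These genes encode DNA-binding proteins that the embryo uses to give neural crest cells of the head, pharyngeal arches and outflow tract their identity. In the arches, endothelin signals received through the endothelin A receptor switch on the distal-less genes Dlx5 and Dlx6 and, with them, the bHLH gene Hand2, while BMP signals act on the homeobox genes Msx1 and Msx2. The AP-2 gene Tfap2b is known for its role in closure of the ductus arteriosus, Twist1 is a bHLH regulator of crest and mesenchyme, and the forkhead genes Foxc1 and Foxc2 are needed for remodelling of the arch arteries and for lymphatic vessels. Dlx6os1, also known as Evf2, is a long noncoding RNA transcribed against Dlx6.

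Of 18872 Female and 20659 Male barcodes, 18863 and 20653 had 300 or more genes, with medians of 3546 and 3104 unique molecular identifiers (UMIs), which count captured molecules. A nucleus joined the group whose marker sum was largest and at least 3 UMIs, with Myh11, Acta2 and Lmod1 for muscle, Ptprb, Flt1 and Pecam1 for endothelium, Pdgfra, Dcn and Scara5 for fibroblast, and Adipoq, Plin1 and Plin4 for fat. Muscle nuclei with 3 or more UMIs of Lrrtm3, Lrrc7 and Adamtsl1 were kept apart as Lrrtm3 muscle. In the Female and Male libraries this gave 7286 and 7069 muscle, 883 and 659 Lrrtm3 muscle, 5197 and 6803 endothelial, 2188 and 2481 fibroblast, and 1478 and 1343 fat nuclei. Marker lists that the grouping did not use followed the names. The summed endothelial list (Cdh5, Tek, Tie1, Kdr, Eng, Emcn and Vwf) stood at 2941 and 2846 CPM, a gene's UMIs scaled to the total of its sum of nuclei, in endothelium and at most 376 elsewhere, and the summed muscle list at 7215 and 8034 in muscle and 5582 and 5823 in Lrrtm3 muscle against at most 600.1 elsewhere. The fibroblast list reached 7054 and 7402 CPM in fibroblasts against at most 1511 elsewhere, and the fat list 11354 and 12292 in fat against at most 466. Of grouped nuclei, 22.0% and 22.7% also held 3 or more UMIs of a second group's markers, and a doublet caller marked 4.99% and 7.28% of nuclei, which were kept as the grouping rule keeps them. The libraries shared 4287 barcodes. RNA set free on lysis was gauged in nuclei of no group with 3 or more UMIs of the macrophage genes Mrc1, F13a1 and Cd163, 400 Female and 578 Male nuclei. Macrophage nuclei that held more of the group markers fell into a group, so this reference leaves out those richest in such RNA. It was also shallower than every group, with medians of 2203.5 and 2476.5 UMIs. The background it gives can therefore be too low.

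In GRCm38 with the GENCODE M21 annotation, Dlx5 lies at chr6:6877805-6882085 on the minus strand beside Dlx6 at chr6:6863334-6868568 on the plus strand. The counted Dlx6os1 model (ENSMUSG00000090063, annotated as antisense) spans chr6:6820189-6871592 on the minus strand and holds the whole of Dlx6. The sources used here do not state whether counting used strand, so reads of Dlx6 and Dlx6os1 cannot be told apart with certainty. The other Dlx6os1 row (ENSMUSG00000098326, a miscellaneous RNA of 146 bases) had 0 UMIs in both libraries. Msx1 lies at chr5:37820485-37824583 (minus), Msx2 at chr13:53466884-53473074 (minus), Tfap2b at chr1:19208914-19238576 (plus), Twist1 at chr12:33957671-33959829 (plus) and Foxc1 at chr13:31806633-31812476 (plus), none overlapping another model. Hand2 at chr8:57320983-57324633 (plus) overlaps the antisense gene Hand2os1, and Foxc2 at chr8:121116171-121118895 (plus) lies within the model Gm20388 on the same strand, so the counts of both are uncertain to that extent.

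To set group differences beside the sequence at gene starts, windows of 4 members with unlike patterns are shown, Dlx6os1, Msx1, Twist1 and Hand2, as the 250 bases before the RefSeq start (GRCm38.p6), 5′ to 3′ on the gene's own strand. Capitals mark matches on either strand to 4 short motifs, TAATTA (a homeodomain core), CANNTG (the E-box that bHLH proteins bind), GCCNNNGGC (AP-2) and TAAACA (a forkhead core). Dlx6os1 has 2 listed starts, at chr6:6869534-6869783 and chr6:6861684-6861933, both on the minus strand and both inside the span of the Dlx6os1 gene. The windows of start 1 and of Hand2 lie wholly within annotated exon sequence, with 0 coding or UTR bases, and the other printed windows hold 0 exon bases. Msx1 is at chr5:37824586-37824835 (minus), Twist1 at chr12:33957421-33957670 (plus), and Hand2, whose level was nearly even between groups, at chr8:57320733-57320982 (plus).
Dlx6os1, start 1: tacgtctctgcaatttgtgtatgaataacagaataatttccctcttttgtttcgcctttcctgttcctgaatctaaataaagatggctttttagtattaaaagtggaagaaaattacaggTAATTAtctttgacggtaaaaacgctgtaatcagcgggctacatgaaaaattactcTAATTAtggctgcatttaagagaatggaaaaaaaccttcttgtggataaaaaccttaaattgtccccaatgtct
Dlx6os1, start 2: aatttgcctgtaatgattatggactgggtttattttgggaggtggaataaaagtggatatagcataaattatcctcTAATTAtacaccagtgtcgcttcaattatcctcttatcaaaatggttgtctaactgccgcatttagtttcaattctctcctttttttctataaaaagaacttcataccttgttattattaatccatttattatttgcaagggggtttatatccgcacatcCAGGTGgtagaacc
Msx1: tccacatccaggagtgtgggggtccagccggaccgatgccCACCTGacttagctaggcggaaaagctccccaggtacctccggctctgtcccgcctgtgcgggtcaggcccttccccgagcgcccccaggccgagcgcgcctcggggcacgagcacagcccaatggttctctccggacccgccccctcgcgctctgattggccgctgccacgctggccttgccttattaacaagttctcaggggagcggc
Twist1: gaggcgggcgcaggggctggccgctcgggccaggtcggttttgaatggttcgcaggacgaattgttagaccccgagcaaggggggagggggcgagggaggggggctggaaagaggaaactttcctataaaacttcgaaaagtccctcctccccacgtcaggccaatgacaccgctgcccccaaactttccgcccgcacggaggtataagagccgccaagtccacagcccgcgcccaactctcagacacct
Hand2: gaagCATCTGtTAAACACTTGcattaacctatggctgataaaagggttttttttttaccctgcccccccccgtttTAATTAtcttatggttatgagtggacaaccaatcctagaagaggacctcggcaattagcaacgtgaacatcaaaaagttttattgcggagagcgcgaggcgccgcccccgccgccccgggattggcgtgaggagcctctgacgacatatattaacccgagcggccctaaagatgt
Start 1 of Dlx6os1 holds TAATTA at 2 places and start 2 at 1 place, beside 1 E-box match in start 2 (CAGGTG). Hand2 holds TAATTA once and 2 E-box matches, CATCTG and CACTTG, the latter overlapping its TAAACA match. Msx1 holds 1 E-box match (CACCTG), and Twist1 holds none of the 4 motifs. Of 32536 distinct windows of that length in the RefSeq table, 4.84% hold TAATTA, 66.2% CANNTG, 13.8% GCCNNNGGC and 12.0% TAAACA. The windows of Dlx6os1 are poor in G and C, 33.2% and 34.0%, against a median of 52.4% over all windows, while those of Msx1 and Twist1 stand at 68.0% and 62.4%.

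The clearest pattern was in the Dlx5-Dlx6 locus, whose 3 transcripts were high in endothelium and in Lrrtm3 muscle and low in the other groups. The level of Dlx6os1 was 158.0 and 129.3 CPM in Female and Male endothelium and 151.7 and 110.2 in Lrrtm3 muscle. In other muscle it was 11.2 and 11.6 CPM, in fibroblasts 17.2 and 14.1, and in fat 1.08 and 2.46. Both libraries placed endothelium and Lrrtm3 muscle above every other group with no overlap, and fat lay at the level of the macrophage nuclei, 2.74 and 1.23 CPM. In a sum over nuclei, fewer expressing nuclei and less RNA per nucleus cannot be told apart. Dlx6os1 was higher in endothelium than in muscle by a log2 fold change of 3.55 ± 0.19 (SE, edgeR quasi-likelihood test, adjusted p = 1.52e-07) and higher in Lrrtm3 muscle than in other muscle by 3.37 ± 0.19 (edgeR, adjusted p = 9.89e-06). Lrrtm3 muscle also held more of other lists than other muscle, the mesothelial list at 82.2 and 204 against 8.25 and 15.2 CPM, the fibroblast list at 1465 and 1511 against 1170 and 1033 and the pericyte list at 673 and 661 against 477 and 405. Its called doublets were 10.3% and 11.4% against 5.24% and 7.89%, and with them removed the difference of Dlx6os1 was 4.12. The part of the other lists was not tested. Fibroblasts and muscle did not pass the test for Dlx6os1 (log2 0.28 ± 0.20, edgeR, adjusted p = 0.293), and with nuclei called as doublets removed the value was 0.64 (edgeR, adjusted p = 0.00412).

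Dlx5, a homeobox gene of the lower jaw and arch skeleton, stood at 12.98 and 14.0 CPM in endothelium and 15.0 and 8.84 in Lrrtm3 muscle. It was 1.28 and 1.75 CPM in other muscle, 3.49 and 3.37 in fibroblasts and 0.0899 and 0.205 in fat, with 0 UMIs in the macrophage nuclei of both libraries. Endothelium and Lrrtm3 muscle again stood above the other groups in both libraries, with Lrrtm3 muscle above endothelium in the Female library and below it in the Male. Dlx5 was higher than in muscle by log2 3.06 ± 0.26 in endothelium (edgeR, adjusted p = 5.51e-06), by 2.86 ± 0.31 in Lrrtm3 muscle (edgeR, adjusted p = 0.000353) and by 1.02 ± 0.32 in fibroblasts (edgeR, adjusted p = 0.0262), where leaving out nuclei with a second group's markers gave 1.73. Dlx6, its partner gene, had 14.5 and 13.6 CPM in Lrrtm3 muscle against 6.89 and 6.67 in endothelium. Other groups had at most 1.35 CPM, down to 0.450 and 0.410 in fat. Dlx6 thus reached its highest level in Lrrtm3 muscle in both libraries, where it was above other muscle by log2 4.06 ± 0.29 (edgeR, adjusted p = 3.38e-05), and endothelium was above muscle by 3.06 ± 0.27 (edgeR, adjusted p = 6.89e-06). Set against each other, in a pair added after these values were known (39.4% of all genes called), endothelium and Lrrtm3 muscle did not pass the test for Dlx6os1 (log2 0.18 ± 0.17, edgeR, adjusted p = 0.439) or Dlx5 (0.20 ± 0.27, edgeR, adjusted p = 0.597), and endothelium was lower for Dlx6 by -1.0 ± 0.25 (edgeR, adjusted p = 0.00896).

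In single nuclei, Dlx5 and Dlx6 were seen in a larger share of endothelial nuclei with Dlx6os1 than of those without it, given here as a description. Of Female endothelial nuclei with a Dlx6os1 UMI, 6.24% also had Dlx5, against 3.34% of those without, and in the Male library the shares were 6.65% and 3.56%. For Dlx6 the shares were 3.99% and 1.59% in Female and 3.11% and 1.70% in Male endothelium. Nuclei with a UMI of one gene tend to be deeper, and Dlx6 and Dlx6os1 reads overlap, and the part of either in these shares was not tested.

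**Figure D1:**
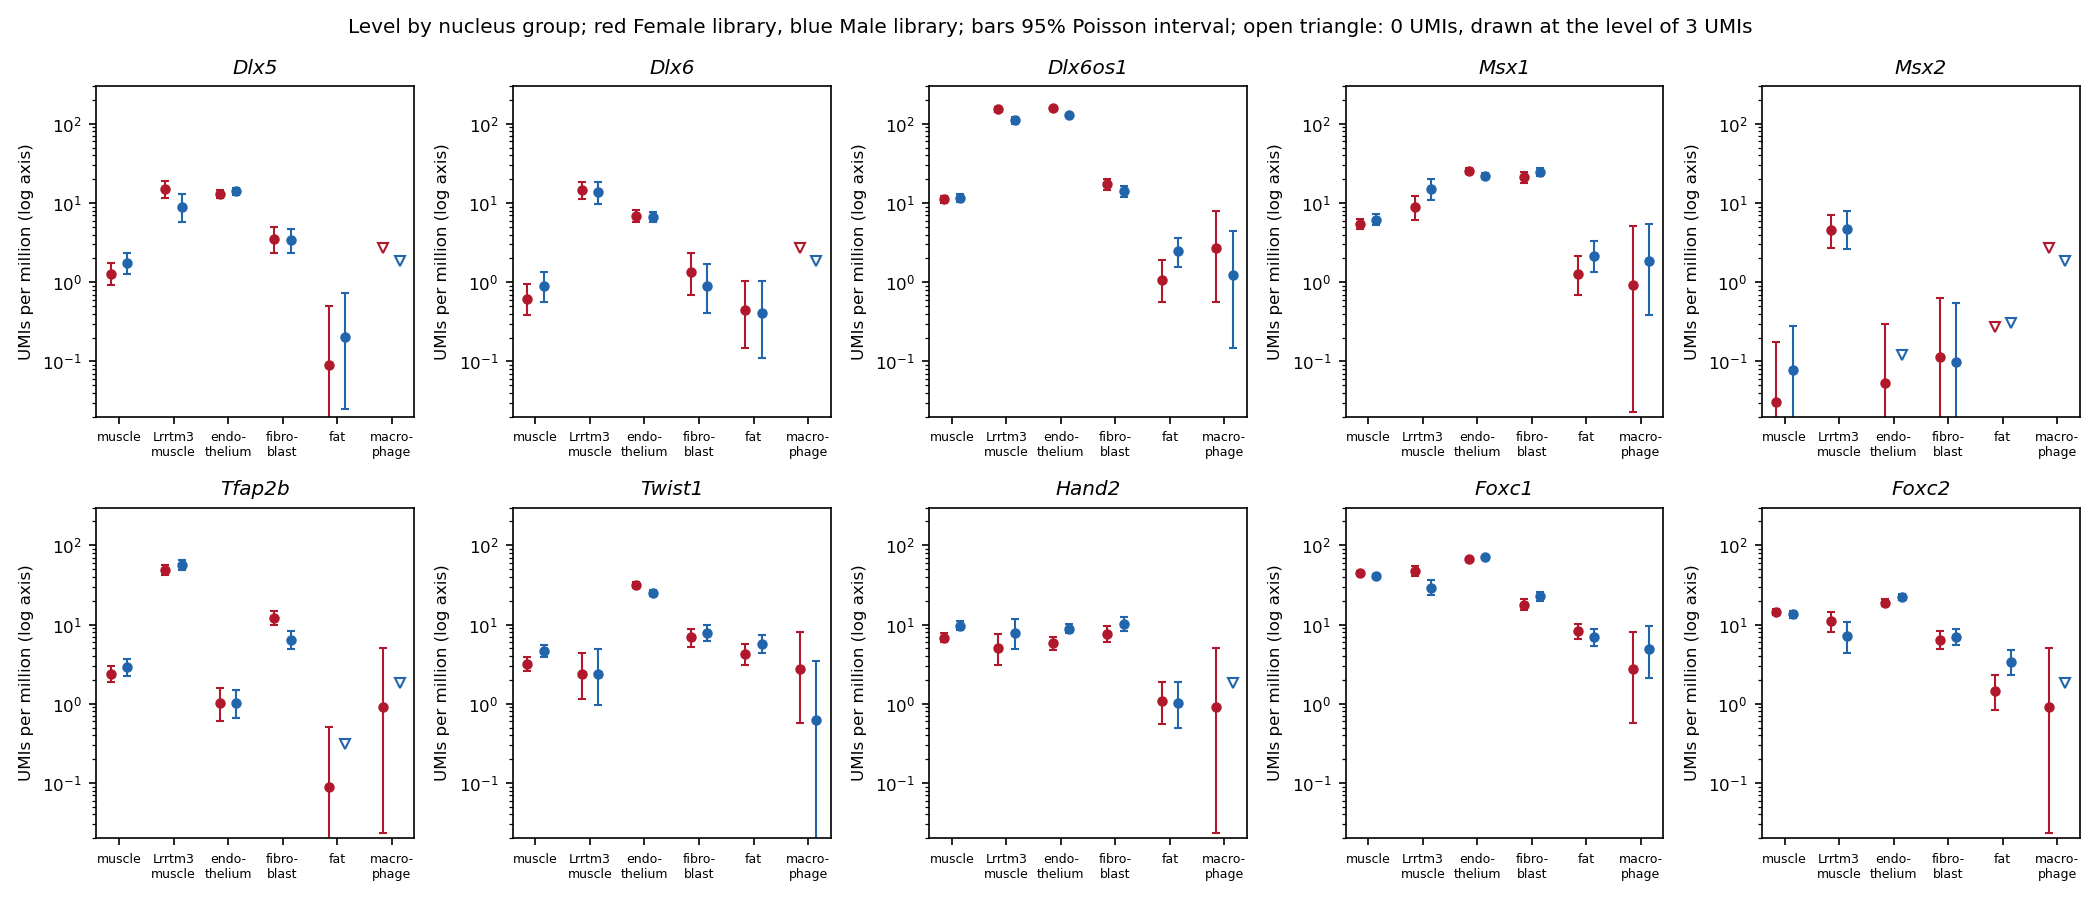
Level of each member with any UMIs (CPM, log axis) in 5 nucleus groups and the macrophage nuclei, red for the Female and blue for the Male library, with 95% Poisson intervals that are cut where they run off the axis; open triangles mark 0 UMIs, drawn at the level of 3 UMIs. Dlx6os1 stands between 110.2 and 158.0 in endothelium and Lrrtm3 muscle and at 17.2 or less elsewhere, and Tfap2b is highest in Lrrtm3 muscle.

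Msx1, a homeobox gene that acts downstream of BMP signals, had a different distribution, high in endothelium and fibroblasts. Its level was 25.4 and 22.1 CPM in endothelium, 21.0 and 24.6 in fibroblasts, 8.79 and 15.0 in Lrrtm3 muscle, 5.48 and 6.15 in other muscle and 1.26 and 2.15 in fat. Endothelium and fibroblasts overlapped, and muscle and fat lay below both in each library. Msx1 was higher than in muscle by log2 1.80 ± 0.19 in fibroblasts (edgeR, adjusted p = 3.31e-05) and by 1.93 ± 0.18 in endothelium (edgeR, adjusted p = 1.21e-05), and endothelium and fibroblasts did not pass the test against each other (0.13 ± 0.18, edgeR, adjusted p = 0.613). Lrrtm3 muscle was above other muscle by 0.83 ± 0.24 without passing the test (edgeR, adjusted p = 0.0636), and it passed in 3 of 7 alternatives. Msx2, its close relative, had only 41 UMIs in all nuclei and did not pass the minimum of 50 UMIs. Of these, 19 of 24 Female and 14 of 17 Male UMIs lay in Lrrtm3 muscle, which gives 4.51 and 4.76 CPM. Other muscle held 1 and 2 UMIs, a level of 0.0311 and 0.0779 CPM, and the ratio of Lrrtm3 to other muscle over both libraries was 88.9 (95% counting interval 27.9 to 453, from 33 against 3 UMIs). All UMIs of Msx2 in the Lrrtm3 muscle of both libraries came from nuclei with a sum of 8 or more for Lrrtm3, Lrrc7 and Adamtsl1, 7.04 and 7.52 CPM there.

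Tfap2b was highest in Lrrtm3 muscle, with 48.9 and 56.8 CPM in the Female and Male libraries. Fibroblasts followed at 12.1 and 6.45 CPM, other muscle at 2.40 and 2.88 and endothelium at 1.01 and 1.02, while fat had 1 UMI in all, in the Female library. The groups did not overlap, and both libraries gave this order. Tfap2b was higher in Lrrtm3 than in other muscle by log2 4.17 ± 0.28 (edgeR, adjusted p = 2.23e-05), higher in fibroblasts than in muscle by 1.63 ± 0.29 (edgeR, adjusted p = 0.00119) and lower in endothelium than in muscle by -1.47 ± 0.35 (edgeR, adjusted p = 0.00587). With nuclei holding a second group's markers left out, the difference was 0.82 in fibroblasts and -3.48 in endothelium, both still called, and without the Female library that of fibroblasts was 1.04. In a pair added later, Lrrtm3 muscle was also above fibroblasts, which were lower by log2 -2.54 ± 0.27 (edgeR, adjusted p = 6.27e-05), where 28.9% of all genes were called. Of all Tfap2b UMIs, 48.6% (Female) and 48.3% (Male) lay in Lrrtm3 muscle. After thinning to 1000 UMIs a nucleus, 6.02% (exact 95% interval 4.53 to 7.82) of Female and 6.38% (4.60 to 8.59) of Male Lrrtm3 muscle nuclei had a Tfap2b UMI, against 0.201% and 0.348% of other muscle and 0.277% and 0% of macrophage nuclei. Unthinned the shares were 14.0% and 15.6% in Lrrtm3 muscle, at medians of 3854 and 3675 UMIs, and 0.250% and 0% in macrophage nuclei, at medians of 2203.5 and 2476.5. All intervals cover counting error only. The share of other muscle nuclei with Tfap2b lay within the macrophage intervals at that depth.

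Within muscle, Tfap2b and Dlx6os1 rose with the sum of the 3 Lrrtm3 list genes across its range, and the Foxc genes did not. With 0, 1, 2, 3, 4 to 7, and 8 or more UMIs of that list, Tfap2b stood at 1.89, 3.73, 11.6, 15.4, 41.5 and 57.5 CPM in the Female library. In the Male library the same steps gave 2.59, 3.75, 8.31, 28.6, 40.5 and 68.2 CPM. Dlx6os1 went from 10.2 to 205 CPM in the Female and from 10.9 to 135 in the Male library between the first and last step. Levels of both genes were already raised at 2 UMIs, just outside the group, where Dlx6os1 was 22.0 and 29.1 CPM, and at 3 UMIs, just inside it, they were below those of the higher sums. Between the same ends Dlx5 went from 1.15 to 17.8 and from 1.63 to 9.13 CPM. Dlx6 went from 0.705 to 19.3 and from 0.908 to 18.3, and neither rose at every step. Foxc1 stood at 45.2 and 42.2 CPM in nuclei with a sum of 0 and at 45.2 and 29.5 in those with 8 or more. Foxc2 stood at 14.6 and 13.2 CPM against 12.2 and 6.98. The share of called doublets at a sum of 3 was 19.8% and 14.1%, from 91 and 71 nuclei, against 8.81% and 9.11% at 8 or more, and its part in the steps was not tested.

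**Figure D2:**
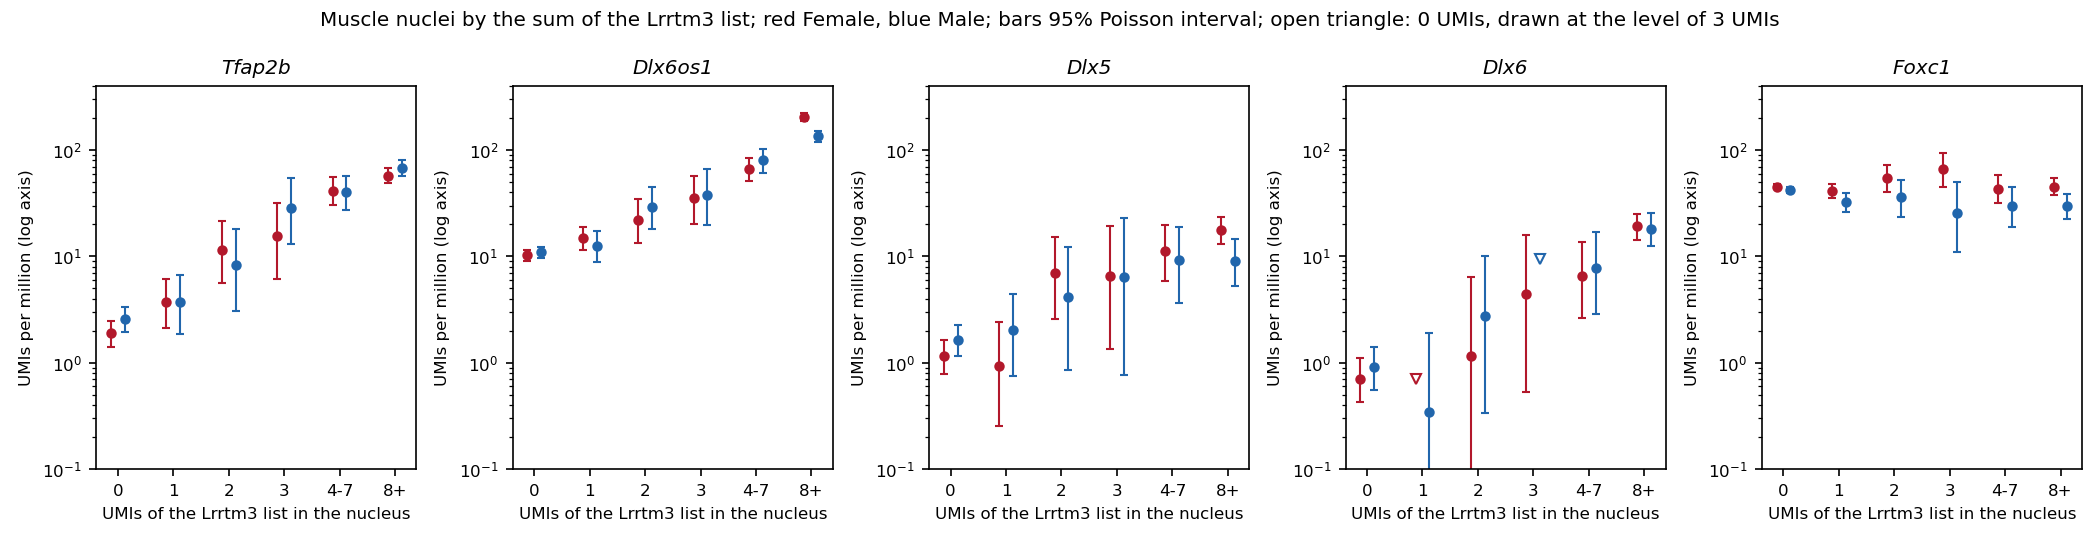
Level of 5 members (CPM, log axis) in muscle nuclei grouped by the number of Lrrtm3, Lrrc7 and Adamtsl1 UMIs in the nucleus, red Female and blue Male, with 95% Poisson intervals that are cut at the axis and open triangles for 0 UMIs drawn at the level of 3 UMIs. Tfap2b goes from 1.89 to 57.5 in the Female and from 2.59 to 68.2 in the Male library, while Foxc1 stays between 25.5 and 65.9.

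Among the bHLH genes, Twist1 was highest in endothelium. Its level there was 31.7 and 24.9 CPM, against 6.86 and 7.84 in fibroblasts, 4.23 and 5.74 in fat, 3.18 and 4.67 in muscle and 2.37 and 2.38 in Lrrtm3 muscle. Endothelium stood apart from every other group in both libraries, while fat and muscle overlapped. Twist1 was higher in endothelium than in muscle by log2 2.76 ± 0.21 (edgeR, adjusted p = 2.17e-06) and than in fibroblasts by 2.02 ± 0.22 (edgeR, adjusted p = 3.88e-05), an added pair in which 40.4% of all genes were called. Fibroblasts were above muscle by 0.75 ± 0.24 (edgeR, adjusted p = 0.0285), a call lost after thinning to 1000 UMIs (adjusted p = 0.0530). Hand2, the bHLH gene that with its relative Hand1 shapes heart and arches, was close to even between groups. It stood at 6.85 and 9.70 CPM in muscle, 4.99 and 7.82 in Lrrtm3 muscle, 5.83 and 8.87 in endothelium and 7.65 and 10.2 in fibroblasts. The 4 groups overlapped, and none of the 6 pairs among them passed (3 of them added later, edgeR, adjusted p = 0.166 to 0.413), with log2 values of -0.06 ± 0.18 for fibroblasts and -0.28 ± 0.17 for endothelium against muscle (edgeR, adjusted p = 0.837 and 0.215) and -0.54 ± 0.23 for Lrrtm3 against other muscle (adjusted p = 0.188). Fat was the exception at 1.08 and 1.03 CPM, lower than fibroblasts by log2 -3.02 ± 0.26 (edgeR, adjusted p = 3.45e-06), or -1.71 after thinning to 1000 UMIs.

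Foxc1 and Foxc2, forkhead genes of the arch arteries, shared an order of groups with endothelium first, muscle next and fibroblasts and fat below. Foxc1 stood at 66.3 and 70.6 CPM in endothelium, 44.9 and 40.9 in muscle, 47.0 and 29.2 in Lrrtm3 muscle, 17.9 and 22.6 in fibroblasts and 8.19 and 6.87 in fat. Endothelium was above every other group in both libraries, and the muscle groups overlapped. Against muscle, Foxc1 was higher in endothelium by log2 0.57 ± 0.17 (edgeR, adjusted p = 0.0183) and lower in fibroblasts by -1.24 ± 0.19 (edgeR, adjusted p = 0.000399). Foxc2 stood at 18.9 and 22.1 CPM in endothelium, 14.4 and 13.5 in muscle, 10.9 and 7.14 in Lrrtm3 muscle, 6.41 and 7.04 in fibroblasts and 1.44 and 3.38 in fat. It was lower in fibroblasts than in muscle by log2 -1.22 ± 0.25 (edgeR, adjusted p = 0.00265), and the higher level in endothelium did not pass (0.45 ± 0.21, edgeR, adjusted p = 0.109). Neither gene passed between the muscle groups (-0.30 ± 0.19 and -0.73 ± 0.28, edgeR, adjusted p = 0.400 and 0.150). The surrounding model Gm20388 had 331 to 1045 CPM in the 5 groups, highest in fibroblasts, where Foxc2 was low.

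Counted by comparison, 9 of the 11 rows passed the minimum of 50 UMIs and could be tested. Between endothelium and muscle 7 of 9 were called, 6 higher and Tfap2b lower, where 46.6% of all 19339 genes tested were called, 23.6% as higher and 23.0% as lower. Between fibroblasts and muscle 6 of 9 were called, with Tfap2b, Msx1, Dlx5 and Twist1 higher and the 2 Foxc genes lower, against 41.5% of all genes, 20.3% higher and 21.2% lower. The median log2 fold changes of the members were 1.93 and 0.39, beside -0.0039 and -0.05 over all genes. Between Lrrtm3 and other muscle 4 of 9 were called, Tfap2b, Dlx6os1, Dlx6 and Dlx5, all higher, where 8.91% of genes were called and 4.52% were called as higher. The median of the members was 0.83 and that of all genes -0.12. Fat was lower than fibroblasts for 8 of 9 members, all but Twist1 (log2 -0.54 ± 0.26, edgeR, adjusted p = 0.0954), where 62.7% of genes were called and 31.2% as lower, and the median of the members was -3.02. In counts, the summed fibroblast level of Msx1 was 13.7 times (95% counting interval 9.68 to 19.9) that of fat, and that of Tfap2b 190 times (33.7 to 7560, from 173 against 1 UMI). Dlx6 was the weakest of the 8, with log2 -1.31 ± 0.50 (edgeR, adjusted p = 0.0407), and 3 of 7 alternatives lost its call, with adjusted p up to 0.169.

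**Figure D3:**
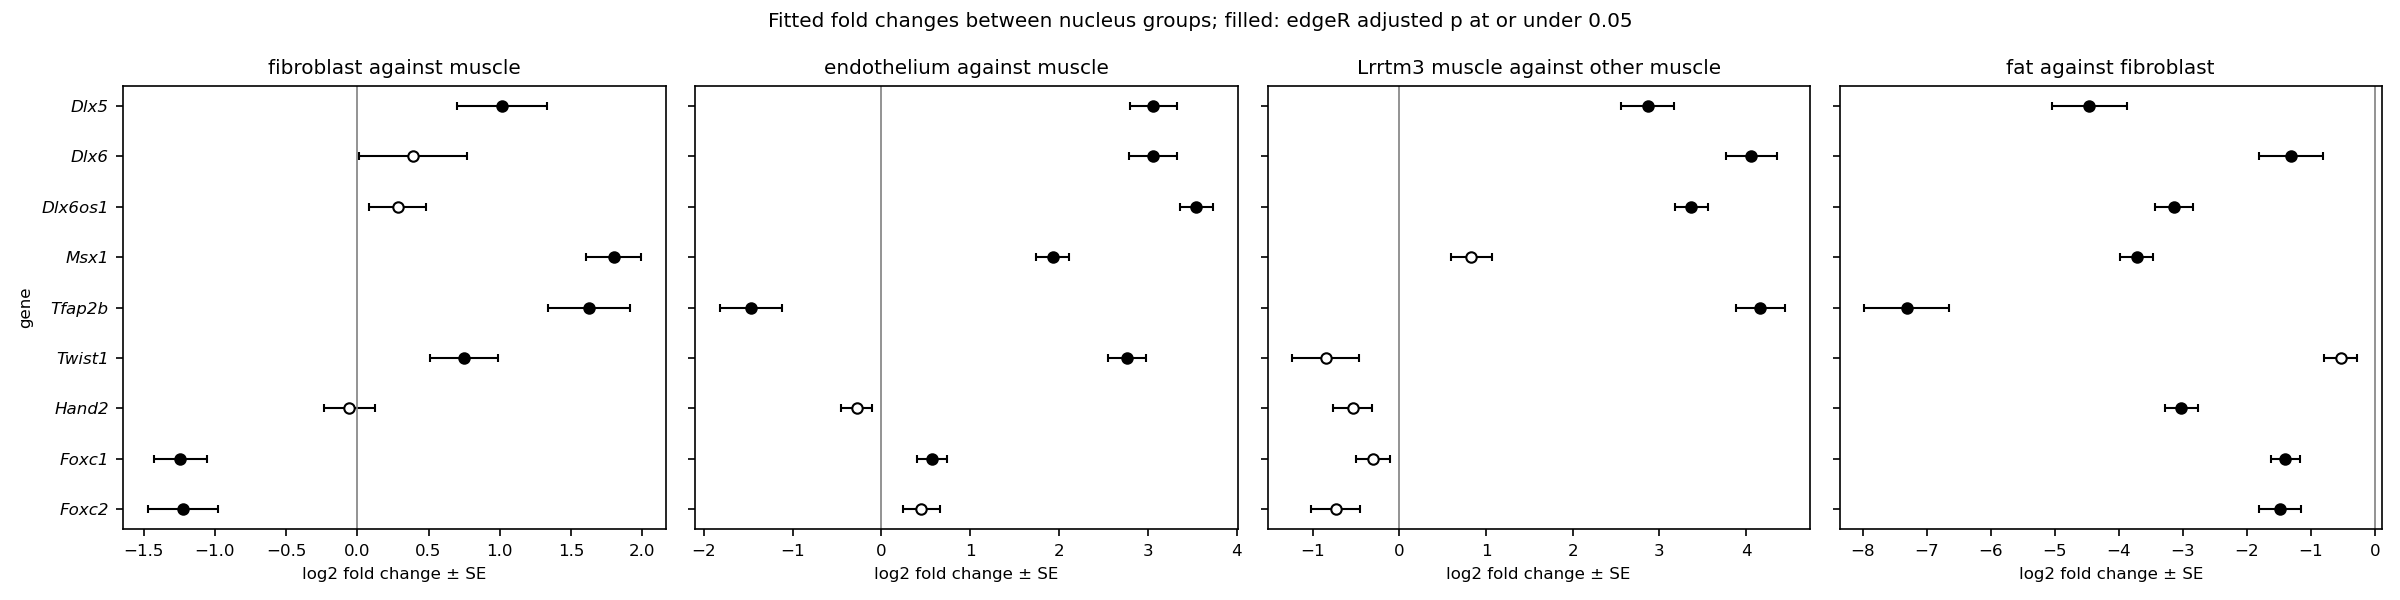
Fitted log2 fold changes ± SE of the 9 tested members in 4 comparisons of nucleus groups over 2 libraries; filled points passed an edgeR adjusted p of 0.05. In Lrrtm3 against other muscle the 4 filled points lie between 2.86 and 4.17, and against fibroblasts fat lies to the left for 8 filled members.

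The reporter split asked whether these levels differ between nuclei of the Wnt1-Cre lineage and others of the same group. A nucleus was GFP-only with 1 or more GFP and 0 tdTomato UMIs, and tdTomato-only in the reverse case. GFP-only nuclei were 8.25% and 6.40% of the macrophage nuclei, cells of blood lineage taken here as the background. They were 29.0% and 27.8% of muscle, 35.3% and 36.3% of Lrrtm3 muscle, 19.0% and 18.3% of fibroblasts and 19.4% and 22.8% of fat, but 5.21% and 5.997% of endothelium, below the macrophage share. A GFP-only share of this size is at the background, so GFP-only endothelial nuclei are not read as Wnt1-Cre lineage. The tdTomato-only share of macrophage nuclei was 24.8% and 25.1%. Tfap2b was higher in nuclei with GFP UMIs alone in muscle, Lrrtm3 muscle and endothelium, Dlx6os1 in Lrrtm3 muscle, and Msx1 in fibroblasts. No other member passed in any group. In muscle, Tfap2b was at 3.39 and 4.63 CPM in Female and Male GFP-only nuclei, from 33 and 36 UMIs. In tdTomato-only nuclei it was at 0.364 and 0.165 CPM, from 3 and 1 UMIs. The reporter classes did not overlap, and the log2 difference was 3.72 ± 0.64 (edgeR, adjusted p = 0.0146), 1 of 9 members called where 0.213% of 17334 genes were, 0.0346% as higher. The ratio over both libraries was 14.1 (95% counting interval 5.25 to 53.1). The call was lost in 3 of 9 alternatives, and the adjusted p ranged up to 0.188 over them. Dlx6os1 in muscle was at 13.6 and 14.9 against 8.01 and 5.46 CPM and did not pass (log2 1.09 ± 0.23, edgeR, adjusted p = 0.0556). With called doublets removed its difference was 2.49 (edgeR, adjusted p = 1.71e-05), and with nuclei holding a second group's markers left out it was 2.74 (edgeR, adjusted p = 0.000259). The summed endothelial marker list stood at 83.7 and 137.1 CPM in GFP-only and 149.3 and 198.2 in tdTomato-only muscle nuclei. Hand2 was at 8.94 and 13.6 CPM in GFP-only against 5.22 and 6.78 in tdTomato-only muscle (edgeR, adjusted p = 0.326).

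In Lrrtm3 muscle, 312 Female and 239 Male nuclei were GFP-only and 81 and 46 tdTomato-only. The smallest sum held fewer than 50 nuclei, the number set as the minimum, and it was admitted after the data had been seen. Dlx6os1 was at 181.0 and 121.7 CPM in GFP-only and 42.2 and 32.2 in tdTomato-only nuclei, with no overlap. Tfap2b was at 64.3 and 82.4 against 21.1 and 9.65 CPM, again with no overlap. The log2 differences were 2.15 ± 0.28 for Dlx6os1 (edgeR, adjusted p = 0.000604) and 2.27 ± 0.48 for Tfap2b (edgeR, adjusted p = 0.0201), 2 of 9 members called where 1.46% of genes were, 0.658% as higher. Dlx6os1 kept its call in all 9 alternatives, with adjusted p up to 0.00841, and Tfap2b lost it in 5, up to 0.416. Without the Female library the difference of Tfap2b was 3.19 and without the Male 1.66. After thinning to 1000 UMIs, Dlx6os1 (ENSMUSG00000090063) was seen in 16.8% (12.8 to 21.5) and 12.9% (8.80 to 18.0) of GFP-only and in 3.75% (0.780 to 10.6) and 4.35% (0.531 to 14.8) of tdTomato-only nuclei. The tdTomato-only nuclei were deeper, with medians of 6078 and 5476 UMIs against 3967.5 and 3790, and held more called doublets, 29.6% and 23.9% against 7.69% and 8.79%. Their summed mesothelial list (Msln, Upk3b, Lrrn4 and Wt1) was 135 and 691 CPM against 46.4 and 47.0. The classes also differed in the sum of Lrrtm3, Lrrc7 and Adamtsl1. A sum of 8 or more, where both genes were highest, was held by 221 of 312 Female and 150 of 239 Male GFP-only nuclei. It was held by 32 of 81 and 22 of 46 tdTomato-only nuclei. The part of this make-up in the reporter differences was not tested. With called doublets removed, the difference of Dlx6os1 was 2.35 (edgeR, adjusted p = 0.000217). All 16 Msx2 UMIs of Lrrtm3 muscle nuclei with 1 reporter alone were in GFP-only nuclei, 10 Female and 6 Male, and Dlx5 was at 18.6 and 8.62 CPM against 5.27 and 0 (edgeR, adjusted p = 0.298).

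In endothelium, where 271 Female and 408 Male nuclei were GFP-only and 2216 and 2817 tdTomato-only, the Dlx6os1 level was high in both classes. It was at 145.5 and 116.2 CPM in GFP-only and 157.9 and 130.7 in tdTomato-only nuclei, and the ratio over both libraries was 0.895 (95% counting interval 0.793 to 1.01). With the GFP-only share of endothelium below that of macrophage nuclei, neither these values nor those of Tfap2b in endothelium are read as a lineage difference. Tfap2b was the 1 of 9 members called where 0.652% of genes were (0.646% as higher), with 4 and 9 UMIs in GFP-only nuclei (4.25 and 6.19 CPM) and 0 and 2 in tdTomato-only nuclei (0 and 0.182 CPM). The log2 difference was 5.20 ± 0.91 (edgeR, adjusted p = 0.00614) and the ratio over both libraries 53.7 (95% counting interval 12.2 to 491). The minimum UMI count applied to all groups of the fit together, where Tfap2b had 352 UMIs. Of these, GFP-only and tdTomato-only nuclei held 13 and 2 in endothelium and 183 and 15 in Lrrtm3 muscle. Tfap2b thus entered this comparison only through other groups, and had too few UMIs for a test with endothelium fitted alone. GFP-only endothelial nuclei also held more UMIs of other groups' lists, with the muscle list at 767 and 834 CPM against 566 and 540, the pericyte list (Rgs5, Kcnj8, Abcc9 and Notch3) at 94.5 and 110.0 against 35.0 and 30.3 and the fat list at 644 and 692 against 231 and 228. Called doublets were 8.86% and 15.7% against 5.01% and 6.50%. With nuclei holding a second group's markers left out, the Tfap2b call was lost (log2 4.45, edgeR, adjusted p = 0.942), as it was in 2 further alternatives of 8.

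In fibroblasts, Msx1 was at 29.4 and 36.6 CPM in GFP-only and 6.24 and 15.4 in tdTomato-only nuclei. The log2 difference was 1.63 ± 0.40 (edgeR, adjusted p = 0.0471), 1 of 9 members called where 1.19% of genes were, 0.242% as higher. It was lost in 6 of 9 alternatives, with adjusted p up to 0.594, and was 2.26 without the Male library and 1.31 without the Female. Tfap2b was at 18.7 and 10.4 against 5.46 and 2.01 CPM and did not pass (2.04 ± 0.57, edgeR, adjusted p = 0.108). The tdTomato-only fibroblasts had a higher mesothelial list, 278 and 660 CPM against 42.8 and 76.2, and a lower pericyte list, 425 and 306 against 769 and 636, whose part was not tested. In fat, 0 of 9 members were called where 0.0115% of genes were, and 0 had an unadjusted p under 0.05, with 0 called by DESeq2 as well. Tfap2b had 0 UMIs in fat nuclei of either reporter class. In the test of whether the reporter difference itself differed between fibroblasts and muscle, 0 members were called by edgeR, where 0.190% of genes were (0 members by DESeq2). Unadjusted p was under 0.05 for 2 members, Dlx6os1 (log2 -1.50 ± 0.40, edgeR, adjusted p = 0.214) and Dlx6 (5.08 ± 2.35, edgeR, adjusted p = 0.753). With called doublets removed, that of Dlx6os1 passed (-2.21, edgeR, adjusted p = 0.0172). Between Lrrtm3 and other muscle the difference was called for 0 of 9 members and 0 of all genes by edgeR, and for 0 members and 66 genes by DESeq2. Unadjusted p was under 0.05 for Dlx6os1 (log2 1.06 ± 0.38, adjusted p = 0.390) and Hand2 (-1.68 ± 0.69, adjusted p = 0.487), and the value was -1.45 ± 0.88 for Tfap2b (adjusted p = 0.683) by edgeR, and the value for Dlx6os1 was below 0 with called doublets removed. The larger reporter difference of Dlx6os1 in Lrrtm3 muscle is thus not shown to differ from that in other muscle.

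**Figure D4:**
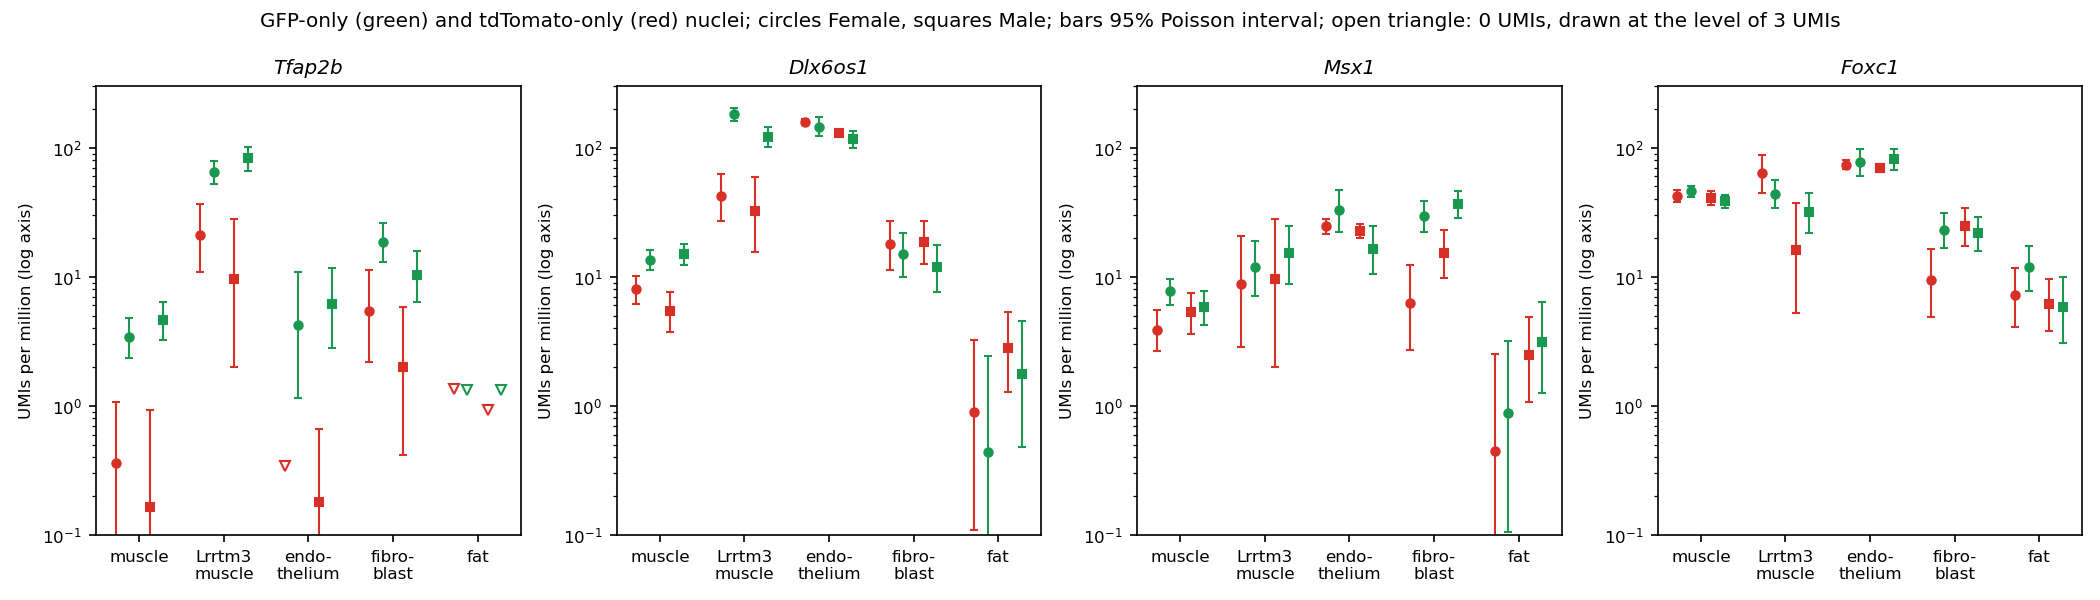
Levels of Tfap2b, Dlx6os1, Msx1 and Foxc1 (CPM, log axis) in GFP-only (green) and tdTomato-only (red) nuclei of 5 groups, circles Female and squares Male, with 95% Poisson intervals cut at the axis and open triangles for 0 UMIs drawn at the level of 3 UMIs. Dlx6os1 separates by reporter in Lrrtm3 muscle, at 181.0 and 121.7 against 42.2 and 32.2, and in endothelium it is above 100 in both classes.

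Endothelial nuclei were split further by pairs of subset genes chosen after earlier results were known, each nucleus going to the pair with the larger sum of 2 or more UMIs. Dlx6os1 was at 178 and 147 CPM in Nrg1 and Emcn nuclei, 167 and 125 in Ankrd33b and Fgfr3 nuclei and 150 and 118 in Chrm3 and Cyp4b1 nuclei. The high level was thus found in each larger subset. In nuclei with the lymphatic genes Prox1 and Mmrn1 it was at 0 and 52.8 CPM, from 25 and 48 nuclei. Twist1 differed more between subsets, with 44.6 (95% counting interval 38.5 to 51.3) and 40.6 (35.6 to 46.1) CPM in Nrg1 and Emcn nuclei against 23.3 and 16.2 in Ankrd33b and Fgfr3 nuclei and 22.8 and 19.7 in Chrm3 and Cyp4b1 nuclei. Foxc1 was at 79.0 and 81.2 CPM in Chrm3 and Cyp4b1 nuclei against 60.0 and 65.9 in Nrg1 and Emcn nuclei. Hand2 stood at 18.4 CPM (14.7 to 22.8) in the Ankrd33b and Fgfr3 nuclei of the Male library, and at 8.33 (5.09 to 12.9) in those of the Female.

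**Figure D5:**
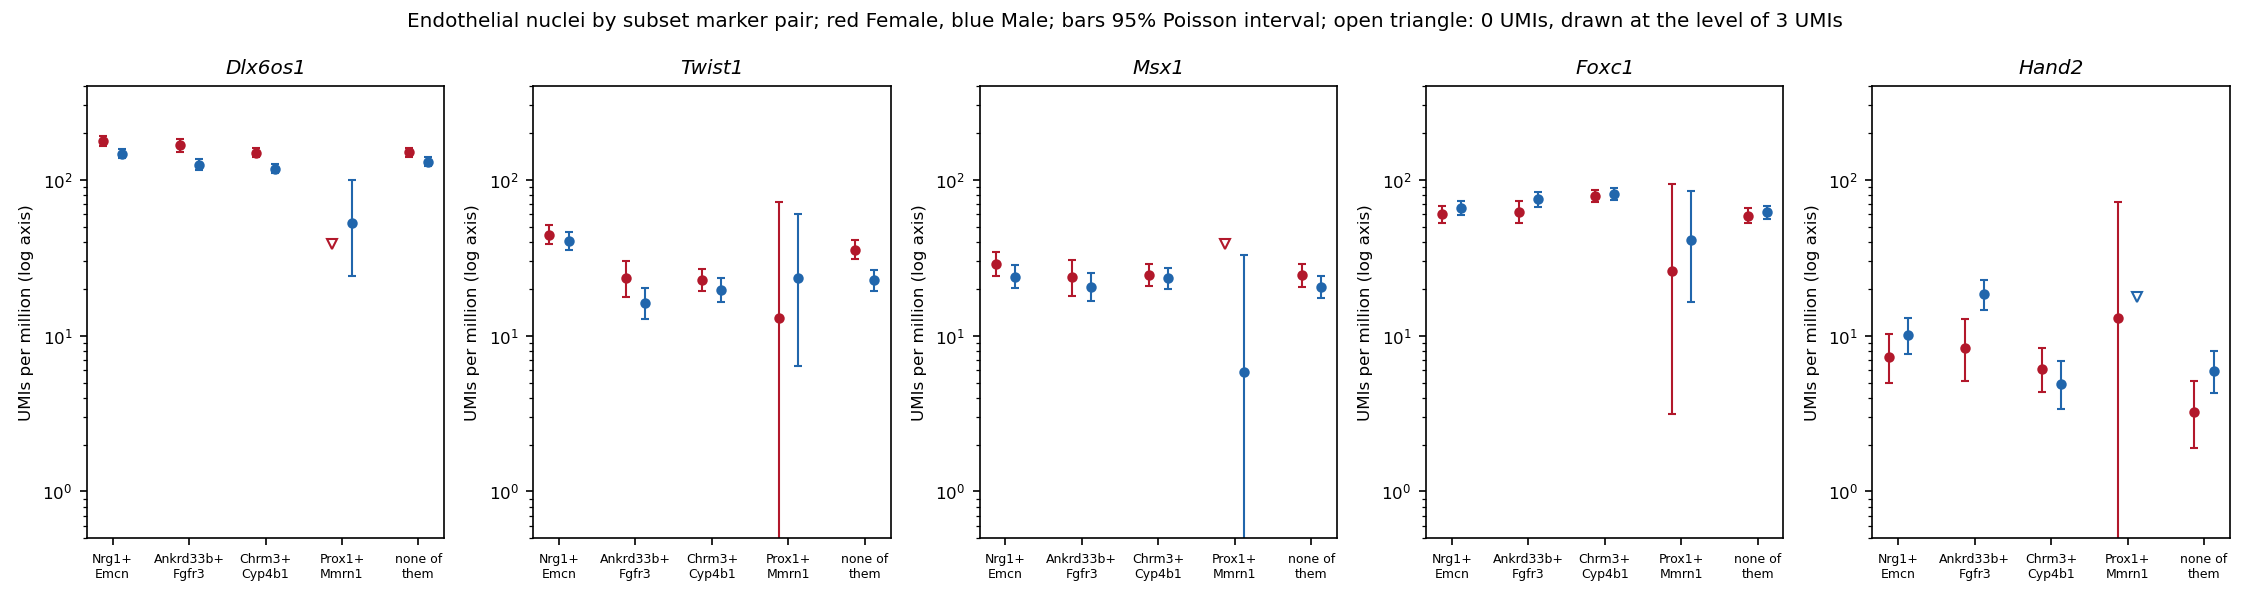
Levels of 5 members (CPM, log axis) in endothelial nuclei split by subset gene pair, red Female and blue Male, with 95% Poisson intervals cut at the axis and open triangles for 0 UMIs drawn at the level of 3 UMIs. Twist1 is highest in the Nrg1 and Emcn nuclei, 44.6 and 40.6, and Dlx6os1 is above 100 in each subset but that of Prox1 and Mmrn1.

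Other muscle and fibroblasts were also split by subset gene pairs. Muscle nuclei with Pdzrn4 and Sphkap had Dlx6 at 1.33 and 1.36 CPM, against 0.279 and 0.667 in those with Ptprz1 and Actn2. These values rest on few UMIs, since all other muscle held 20 Female and 23 Male UMIs of Dlx6, and no difference is read from them. Among fibroblasts, Tfap2b was at 126 CPM (95% counting interval 89.0 to 173) in 71 Female nuclei with Chrm2 and Nlgn1, from 38 UMIs, and at 35.6 (7.35 to 104) in 23 Male ones, from 3 UMIs. It was at 15.3 and 9.36 CPM in C7 and Plcxd3 fibroblasts and at 2.74 and 1.06 in Pi16 and Dact2 fibroblasts. The Female fibroblast level of Tfap2b thus rested in part on 71 of 2188 nuclei. Foxc2 was at 12.5 and 18.3 CPM in Pex5l and Lsamp fibroblasts and at 3.57 and 3.44 in Pi16 and Dact2 fibroblasts.

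At least 1 member was seen in 61.8% and 55.2% of Lrrtm3 muscle nuclei, 55.4% and 53.8% of endothelial, 27.4% and 23.2% of other muscle, 24.6% and 24.8% of fibroblast and 11.4% and 12.6% of fat nuclei. A pair of members or more were seen in 21.6% and 17.9% of Lrrtm3 muscle and 19.3% and 18.1% of endothelial nuclei, against at most 4.59% in the other groups. Fat nuclei had the lowest shares although their median depth was the highest, 6877 and 7028 UMIs.

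Between the sexes, with 1 library each and so no test, no member that reached 20 CPM in either library was 2-fold apart in any group under any alternative. Genes higher and lower in the Female library by that much were 0.126% and 0.335% in muscle, 0.226% and 0.757% in Lrrtm3 muscle, 0.0266% and 0.386% in endothelium, 0.284% and 0.608% in fibroblasts and 0.818% and 1.23% in fat. Dlx6os1 was higher in the Female library by a ratio of 1.22 (95% counting interval 1.16 to 1.29) in endothelium and 1.38 (1.20 to 1.58) in Lrrtm3 muscle. Foxc1 was higher by 1.61 (1.24 to 2.10) in Lrrtm3 muscle. Twist1 was higher by 1.27 (1.13 to 1.42) in Female endothelium and lower in muscle, 0.680 (0.517 to 0.893). Hand2 was lower in the Female library in muscle (0.707, 0.587 to 0.851) and endothelium (0.657, 0.518 to 0.830). Tfap2b in fibroblasts stood at a ratio of 1.88 (1.37 to 2.60). In fat, where both were under 20 CPM, Foxc2 stood at 0.425 (0.219 to 0.795), from 16 and 33 UMIs. Dlx6os1 stood there at 0.438 (0.200 to 0.912), from 12 and 24. In Lrrtm3 muscle, also under 20 CPM, Msx1 stood at 0.587 (0.369 to 0.931) and Dlx5 at 1.69 (1.06 to 2.79). These intervals leave out the variation between animals.

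Over the 20 sums of 5 groups, 2 reporter classes and 2 libraries, the genes most like each member were named by Pearson correlation of log2(CPM + 5) among 13785 genes, as a description of sums that share libraries and depth. Tfap2b was most like Fgf12 (0.93), Fendrr (0.91) and the homeobox gene Prrx2 (0.91). Dlx6os1 was most like the Wnt inhibitor gene Frzb (0.97), the glutamate receptor gene Gria3 (0.96) and Ptprk (0.93), with Dlx5 at 0.91. Dlx6 was most like Pak7 (0.93), Nrk (0.87) and Cux2 (0.83), and Dlx5 like Tox, Crybg1 and Gpr4 (each 0.89). Twist1 was most like Rasgef1b (0.94), Gvin1 (0.93) and Cyp4b1 (0.93), and Msx1 like Castor1, Tmod2 and Cacnb4 (each 0.90). Among the genes most like Foxc2 were Lox (0.96) and Tgm2 (0.94), and Foxc1 was most like Itpkb, Cdh13 and Tgfb1 (each 0.94), with 0.88 between the Foxc genes. Hand2 was most like Nsmf (0.88), Zfp992 (0.87) and Jund (0.87).

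Genes of the same programmes were read from lists of upstream signals, partners and other crest factors. Of 33 tested among 50 other crest and arch transcription factors, 10 were higher and 0 lower in Lrrtm3 than in other muscle, led by the paired-related homeobox genes Prrx2 (log2 3.09) and Prrx1 (1.24), the T-box gene Tbx3 (2.14) and Osr1 (0.73). Prrx2 stood at 80.3 and 72.4 CPM in Lrrtm3 muscle and 7.35 and 8.88 in other muscle. In endothelium against muscle 9 were higher, led by Tbx1 (3.79), Eya1 (4.60), Gata3 (4.12) and Sox8 (3.82), and 15 lower, led by Osr1 (-2.71), Nr2f2 (-1.82), Foxf1 (-4.23) and Prrx1 (-1.84). In fibroblasts against muscle 18 were higher, led by Twist2 (3.51), Prrx1 (2.23), Nr2f2 (1.60) and Prrx2 (1.82), and 5 lower. Their medians were 0.35, -0.57 and 0.94 beside -0.12, -0.0039 and -0.05 over all genes. In fat against fibroblasts 4 were higher and 22 lower, where 62.7% of all genes were called and 31.2% as lower. Of all genes tested, 4.52% were called as higher in Lrrtm3 than in other muscle. Against muscle, 23.6% were higher and 23.0% lower in endothelium, and 20.3% and 21.2% in fibroblasts.

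In the endothelin list of 9 genes, the ligand gene Edn1 (log2 3.94) and Ece1 (2.35), which encodes the enzyme that activates it, were higher in endothelium than in muscle with Gnaq, and 5 were lower, including the receptor gene Ednra (-1.06). Edn1 stood at 474 and 390 CPM in endothelium. Of all genes, 23.6% were higher and 23.0% lower in endothelium than in muscle. Ednra was higher in Lrrtm3 than in other muscle (2.61), at 90.7 and 71.4 against 15.4 and 8.65 CPM. It was the 1 list gene called as higher there, and 1 was called as lower. Of all genes, 8.91% were called in that comparison, 4.52% as higher. Ednra was also the 1 of 9 list genes called as higher in GFP-only nuclei of Lrrtm3 muscle and of endothelium. The differences were 1.27 (edgeR, adjusted p = 0.0284) and 2.34 (edgeR, adjusted p = 0.000892), where 0.658% and 0.646% of genes were called as higher. With the GFP-only share of endothelium below that of macrophage nuclei, the endothelial value is not read as a lineage difference. In fibroblasts against muscle 3 were higher, led by Ednra (2.49), and 4 lower, led by Mef2c (-2.06). The shares of all genes were 20.3% and 21.2%. Of 20 tested BMP genes, 10 were higher and 4 lower in endothelium than in muscle, where 23.6% and 23.0% of all genes were, led by the ligand gene Bmp4 (4.65), at 1175 and 1053 CPM, and by the receptor gene Bmpr1b (-4.31). Lrrtm3 muscle had 2 higher, Bmpr1b (1.11) and Bmp7 (3.57), and 0 lower, and fibroblasts 5 higher and 6 lower than muscle, where 20.3% and 21.2% of all genes were. The medians of the BMP list were 0.93 in endothelium, 0.10 in Lrrtm3 muscle and 0.05 in fibroblasts, beside -0.0039, -0.12 and -0.05 over all genes, and those of the endothelin list -0.42, 0.09 and -0.26. Of 10 tested bHLH partners, 4 were higher and 2 lower in endothelium than in muscle, 3 and 3 in fibroblasts, and 0 were called between the muscle groups, with medians of 0.36, 0.04 and 0.13, against the same shares and medians of all genes.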

How the data were processed

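The authors deposited a matrix of raw UMI counts per gene and barcode for each library, made with Cell Ranger 7.0.0 per the file headers. The submitters' processing notes also list STAR, Seurat 4.4.0 and GRCm38. Neither strand setting, intron counting nor annotation version is given in those sources. Barcodes with 300 or more genes were kept and grouped by marker sums, and raw counts were summed per library and group (10 sums) and per reporter class (20 sums). Sums were tested with edgeR 4.0.16 in R 4.3.3 (quasi-likelihood, TMM, library as a block, genes with 50 or more UMIs, Benjamini-Hochberg adjustment over all genes, called at 0.05 or less), leaving out the grouping markers and reporters. Alternatives were DESeq2 1.42.0, a minimum of 10 UMIs, no library block, doublets removed (Scrublet in scanpy 1.11.5, expected rate 0.08), a marker sum of 5, nuclei with a second group's markers left out, thinning to 1000 UMIs, 2 reporter UMIs, and each marker group fitted alone. Doublets stayed in otherwise. The files held 0 columns of other samples. Promoter windows came from the RefSeq table of GRCm38.p6. The scripts were tested on simulated data. Levels carry exact Poisson and shares exact Clopper-Pearson 95% intervals. All members are named. Of each other gene list, at most 4 called genes a direction are named by smallest adjusted p, and for each member the 3 genes of highest correlation, of which 1 is not reported here. Members and lists were chosen with earlier results of these data known.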

Additional observations from a re-analysis of the deposited data

Results flagged for a closer look

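Nuclei in no marker group entered no comparison, yet those with GFP UMIs alone held members above the level of the macrophage nuclei in both libraries. The macrophage nuclei were taken here with any reporter state and are themselves part of the nuclei in no group. The sets compared thus differ in reporter selection and overlap. Tfap2b stood at 21.2 (Female) and 19.5 (Male) CPM, from 9 and 10 UMIs, and had 0 UMIs in tdTomato-only nuclei of no group. Dlx6os1 stood at 28.2 and 27.3 CPM, against 5.35 and 8.22 in tdTomato-only nuclei. Foxc1 stood at 28.2 and 25.3 CPM, against 8.55 and 9.87.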

How the results depend on the processing

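Between nucleus groups, 171 of 175 recomputed values of called members kept their direction and call and 4 lost the call. For reporter comparisons 27 of 44 kept both and 17 lost the call. Members called in GFP-only against tdTomato-only muscle were 1, and were 2 with a 10-UMI minimum, doublets removed or second markers left out, 3 with muscle fitted alone, and 0 with no library block, after thinning or with 2 reporter UMIs. In Lrrtm3 muscle 2 became 1 with no library block, doublets removed, second markers left out, thinning or 2 reporter UMIs. In endothelium 1 became 0 with second markers left out, thinning or 2 reporter UMIs. With endothelium fitted alone 0 members were called, but Tfap2b had too few UMIs to be tested there. In fibroblasts 1 became 0 with no library block, doublets removed, a marker sum of 5, second markers left out, thinning or 2 reporter UMIs, and 2 with the group alone. For the fibroblast minus muscle difference 0 became 1 with doublets removed. Signs reversed for 1 value not called between groups, 46 for the reporter and 11 for reporter differences. Among the members followed singly these were Dlx6 in fibroblasts against muscle after thinning (-0.45), Tfap2b in the fibroblast minus muscle difference with 2 reporter UMIs (0.15), and, in the Lrrtm3 minus other muscle difference, Msx1 by DESeq2 (-0.0046) and with a marker sum of 5 (-0.039) and Dlx6os1 with doublets removed (-0.14) or second markers left out (-0.32). Thinning reversed the log2 Female to Male values of Twist1 in muscle (0.032), Foxc1 in fibroblasts (0.063) and Dlx6os1 in fat (0.15). The cause of these changes was not tested. Leaving out a library leaves no residual degrees of freedom and so gives values without a test. The library block pairs the groups within each library, and the counts without it stand above. Depth limits Msx2, and Tfap2b outside Lrrtm3 muscle.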
